A study of Homo sapiens with 9 samples.

Results

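The genes described here are 42 human genes of the endoplasmic reticulum (ER) folding machinery: its chaperones and their partners, the disulfide enzymes, the lectin cycle, the stress sensors, ER-associated degradation (ERAD), and parts of the entry and export routes. They were chosen by gene name, with earlier results of these data known, and each name matched 1 of the 60671 rows of the deposited expression table. All 42 passed the filter on low values, as did 16996 genes in all.

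The data are 9 libraries, 3 in each of 3 groups, of polyA RNA from AC16, a cell line of human origin in which adult ventricular cells were fused with a transformed fibroblast line. The first group was kept in high glucose with chrysin, a plant flavone, the second in high glucose alone, and the third in low glucose. All 3 groups are the same unmodified line, and there is no group with chrysin in low glucose, so an effect of chrysin is seen here only on top of high glucose. The glucose concentrations, the chrysin dose and the exposure time were not stated. Nor was it stated that the 3 libraries of a group came from separate cultures, so a p-value refers to library-to-library spread alone, and that spread may be technical. In bulk libraries fewer cells expressing a gene and less of its RNA per cell cannot be told apart. With only low and high glucose compared, a fall in high glucose and a rise in low glucose cannot be told apart either. Fell and rose give only the direction of the first group named relative to the second.

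Proteins that enter the ER are folded by chaperones built around BiP, oxidised by disulfide isomerases and checked by a lectin cycle, and those that fail are pulled back to the cytosol for ERAD. When unfolded protein accumulates, IRE1, PERK and ATF6 start the unfolded protein response, in which the factors XBP1 and cleaved ATF6 raise transcription of many of the genes described here. BiP also binds the sensors and holds them inactive, and its mRNA is the usual readout of the response.

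Read depth per library was between 18171842 and 23024300 reads assigned to genes, counted back from the table. TXNIP, a gene known to be induced by glucose, stood at 16.3 ± 0.860 FPKM in high glucose with chrysin, 79.2 ± 0.907 FPKM in high glucose and 5.90 ± 0.173 FPKM in low glucose (SD, n = 3 each), so the groups labelled high and low glucose differed in it. FPKM counts the fragments of a gene per kilobase of transcript, scaled to all fragments mapped in the library. Of 17 cardiomyocyte markers, 15 averaged under 1 FPKM over the 9 libraries, and MYL2, PLN, MYBPC3 and NKX2-5 were at 0 in every library. All 11 fibroblast markers averaged 1 FPKM or more. The summed cardiomyocyte markers ranged over 19.7 to 22.0 FPKM with chrysin, 22.8 to 25.1 FPKM in high glucose and 28.7 to 29.7 FPKM in low glucose. The summed fibroblast markers ranged over 6952 to 7111 FPKM, 9903 to 10309 FPKM and 8590 to 8854 FPKM in the same order of groups. Between high and low glucose the fibroblast sum followed COL1A1, at 4903 to 5307 FPKM in high and 3560 to 3840 FPKM in low glucose. COL1A2, THY1 and S100A4 were also higher in high than in low glucose. FN1, VIM and POSTN were lower, and the remaining fibroblast markers overlapped between these groups. The cardiomyocyte sum followed NPPB, at 10.3, 9.45 and 10.4 FPKM with chrysin, 12.5, 15.02 and 12.1 FPKM in high glucose and 18.7, 18.7 and 19.6 FPKM in low glucose; GATA4, the other marker above 1 FPKM, averaged 9.04 FPKM over the 9 libraries and overlapped between groups. The 5 smooth muscle markers summed to 287 to 299.6 FPKM with chrysin, 184 to 200.1 FPKM in high glucose and 209 to 215 FPKM in low glucose, and TAGLN, which held most of that sum, was at 245 to 257 FPKM with chrysin, 146 to 161 FPKM in high glucose and 167 to 171 FPKM in low glucose. ACTA2 and MYH11 were likewise higher with chrysin than in high glucose. CNN1 and MYOCD went the other way. CNN1 was at 30.4 to 32.6 FPKM with chrysin and 32.9 to 35.1 FPKM in high glucose, and MYOCD at 1.21 to 1.46 and 2.86 to 3.14 FPKM. All 5 endothelial markers averaged under 1 FPKM. Mitochondrially encoded genes held 3.80 to 3.89% of reads with chrysin, 2.80 to 3.04% in high glucose and 2.79 to 2.90% in low glucose. The part of these differences in the results was not tested. High glucose replicate 1 lay a little apart from its group, with an SD of the log2 ratio of 0.166 and 0.175 to its replicates against 0.145 between those, over 10414 genes.

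Most of the ER set was lower in high glucose. Relative to low glucose, 33 of the 42 genes were lower in high glucose and 4 were higher, and 5 were not called, at an adjusted p under 0.05 in limma. Among all 16996 genes tested, 8.91% were called lower and 14.6% higher in the same comparison. Of the 10414 genes averaging at least 5 FPKM in a group, as all 42 did, 1517 were lower and 2459 higher. With that filter the set again gave 33 lower and 4 higher. The median log2 fold change of the set was -0.41, against 0.025 for all genes, and the largest falls were in HERPUD1 (-2.63), DERL3 (-2.39), HSPA5 (-2.14), DNAJB9 (-1.98) and SDF2L1 (-1.75). All fold changes are of FPKM + 0.5, which understates the change of genes with few reads. Over all genes 62.2% of the calls were higher, and 51.6% after median-of-ratios scaling (1990 higher and 1870 lower); the set then gave 3 higher and 33 lower. Without high glucose replicate 1 the set gave 4 higher and 33 lower.

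The fall was also large in summed FPKM, which is a share of each library and not an absolute amount of RNA. The 42 genes summed to 8398, 8423 and 8464 FPKM in the high glucose libraries and to 12892, 13127.5 and 13220 FPKM in the low glucose libraries, or 1.196 to 1.22% and 1.86 to 1.91% of all FPKM. With chrysin the sum was 8427, 8477 and 8524 FPKM, or 1.21 to 1.23% of all FPKM, which overlaps the range of high glucose alone. HSPA5, HSP90B1, CALR, HERPUD1 and CANX together held 71.9% of the difference of -4651 FPKM between high and low glucose. HSPA5 held 20.6% of it, HSP90B1 19.4% and CALR 18.0%. Such shares and orders between genes rest on the transcript length used for each gene, which was not stated. By reads the order differed: low glucose replicate 1 held 97129 reads of HSPA5, 51944 of CALR and 46773 of HSP90B1.

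**Figure D1:**
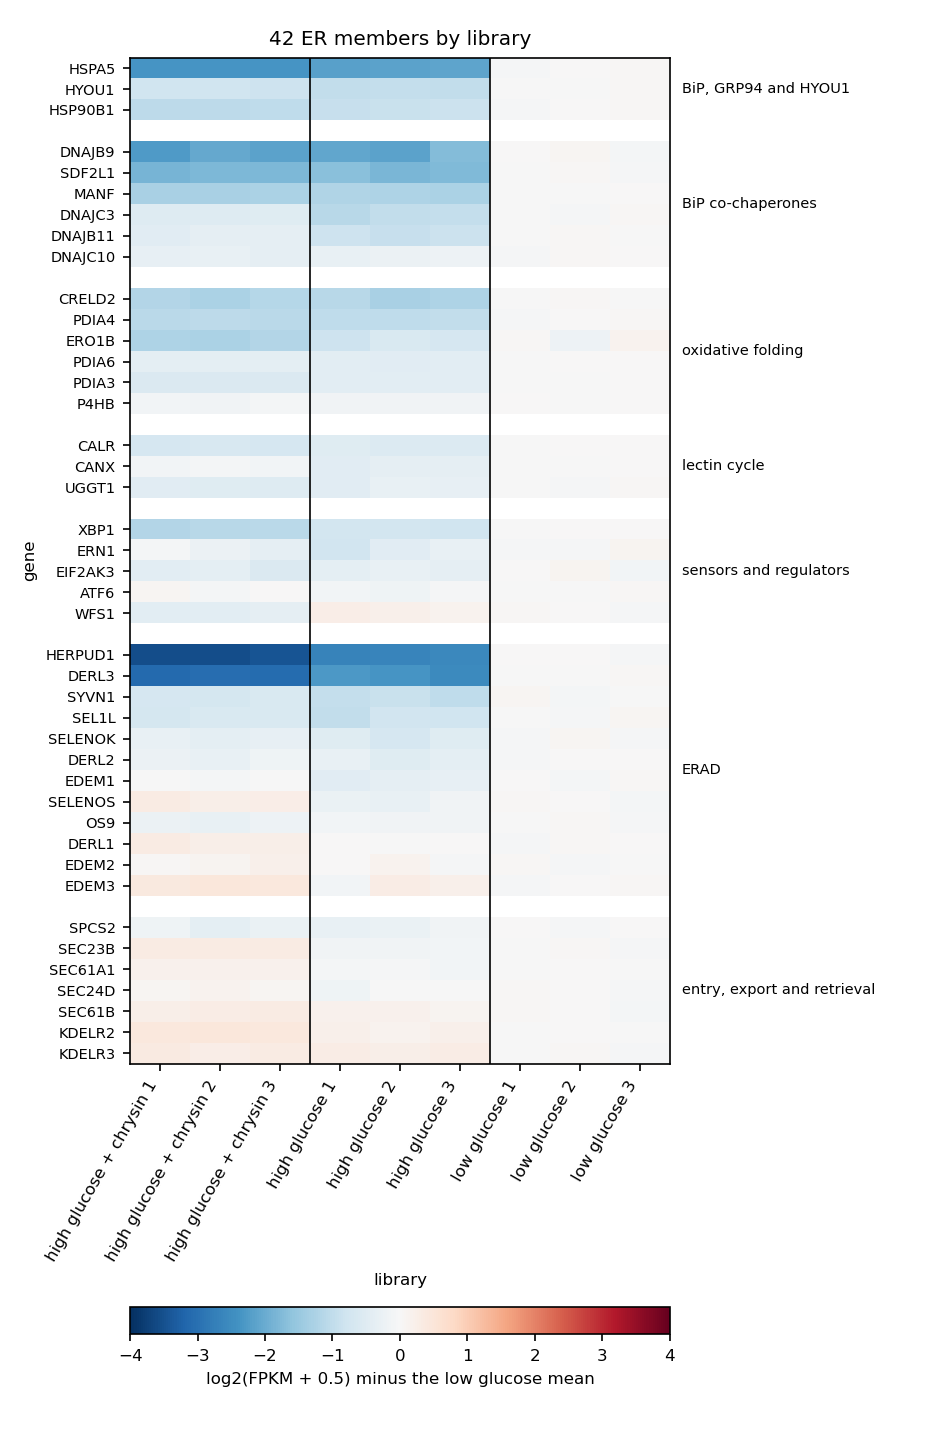
Each cell is a gene's log2(FPKM + 0.5) in 1 library minus its mean over the 3 low glucose libraries, with genes in rows grouped by role and libraries in columns. The blue rows in both high glucose groups are darkest for HERPUD1, DERL3, HSPA5, DNAJB9 and SDF2L1, and the lowest rows, SEC61B, KDELR2 and KDELR3, are pale red in all 6 of those libraries.

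Promoters were read for the letters of known stress elements, because XBP1 and ATF6 are known to act through them. The ER stress element is CCAAT, any 9 bases and CCACG, its second form is ATTGG, any 1 base and CCACG, and both were searched on both strands of RefSeq promoter windows (GRCh38.p14) from 250 bases before to 50 bases after each gene's start. A window was given for 37 of the 42 genes, and DERL1, DERL3, KDELR2, PDIA3 and SEC24D had no entry. The first form was found in 7 of the 37 windows (18.9%) and in 22 of all 27305 windows (0.0806%), and the second in 3 of 37 (8.11%) and 15 of 27305 (0.0549%). These elements were first described in promoters of ER chaperone genes, so their presence here is background and not a result. The 250 bases before the start are shown for the 4 genes with the largest change that hold an element, and for EDEM2, which was not called and holds none. Each is written 5′ to 3′ on the gene's own strand, and the capitals mark the fixed bases of the element, which read as CGTGG, any bases and ATTGG or CCAAT where the match lies on the other strand.
HERPUD1 (chr16:56931892-56932141, plus strand): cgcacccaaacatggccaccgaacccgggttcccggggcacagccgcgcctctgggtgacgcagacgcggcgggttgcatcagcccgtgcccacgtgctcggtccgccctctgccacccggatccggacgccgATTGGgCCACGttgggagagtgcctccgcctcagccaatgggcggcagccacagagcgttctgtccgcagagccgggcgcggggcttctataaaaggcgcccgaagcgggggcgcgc
HSPA5 (chr9:125241344-125241593, minus strand): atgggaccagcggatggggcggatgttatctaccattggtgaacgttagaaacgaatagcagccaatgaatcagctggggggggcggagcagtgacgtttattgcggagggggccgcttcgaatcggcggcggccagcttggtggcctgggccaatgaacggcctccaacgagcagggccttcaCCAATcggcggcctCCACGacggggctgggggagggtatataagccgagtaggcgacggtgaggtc
SDF2L1 (chr22:21642052-21642301, plus strand): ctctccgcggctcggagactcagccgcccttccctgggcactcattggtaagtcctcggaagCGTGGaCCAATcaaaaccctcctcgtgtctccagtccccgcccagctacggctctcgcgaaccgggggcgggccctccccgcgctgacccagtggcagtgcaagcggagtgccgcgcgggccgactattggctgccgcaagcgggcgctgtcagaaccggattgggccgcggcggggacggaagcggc
CRELD2 (chr22:49918384-49918633, plus strand): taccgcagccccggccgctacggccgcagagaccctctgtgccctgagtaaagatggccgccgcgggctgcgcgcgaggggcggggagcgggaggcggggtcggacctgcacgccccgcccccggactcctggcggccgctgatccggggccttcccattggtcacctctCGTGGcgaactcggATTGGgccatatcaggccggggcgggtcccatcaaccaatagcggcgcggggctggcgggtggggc
EDEM2 (chr20:35147337-35147586, minus strand): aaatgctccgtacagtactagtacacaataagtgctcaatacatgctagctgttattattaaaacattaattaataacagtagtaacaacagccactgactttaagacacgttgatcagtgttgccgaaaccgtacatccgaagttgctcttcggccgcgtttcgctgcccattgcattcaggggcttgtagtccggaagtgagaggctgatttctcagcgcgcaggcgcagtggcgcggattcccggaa

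Counted from the start site, the second form begins at -117 in HERPUD1 and -188 in SDF2L1, and the first form at -66 in HSPA5 and -80 in CRELD2. An element of either form lay in 10 windows, those of CALR, CANX, CRELD2, ERO1B, HERPUD1, HSP90B1, HSPA5, HYOU1, SDF2L1 and XBP1. All 10 genes were lower in high than in low glucose, with a median log2 fold change of -0.93 and a range of -2.63 to -0.39. Of the 27 genes with a window and no element, 21 were lower and 3 higher, with a median of -0.35 and a range of -1.98 to 0.28. DNAJB9, MANF, DNAJC3 and PDIA4 are among those without an element, with log2 fold changes between -1.98 and -1.001. The UPR element TGACGTGG, on either strand, was in the windows of HYOU1, DNAJC10 and KDELR3 and in 0.795% of all windows; in HYOU1 it overlaps an ER stress element of the second form. The CHOP-ATF4 composite element, TGATG, any base and AAT, was in none of the 37 windows and in 1.02% of all. A match is only a run of letters, and no match says nothing of binding outside the window.

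**Figure D2:**
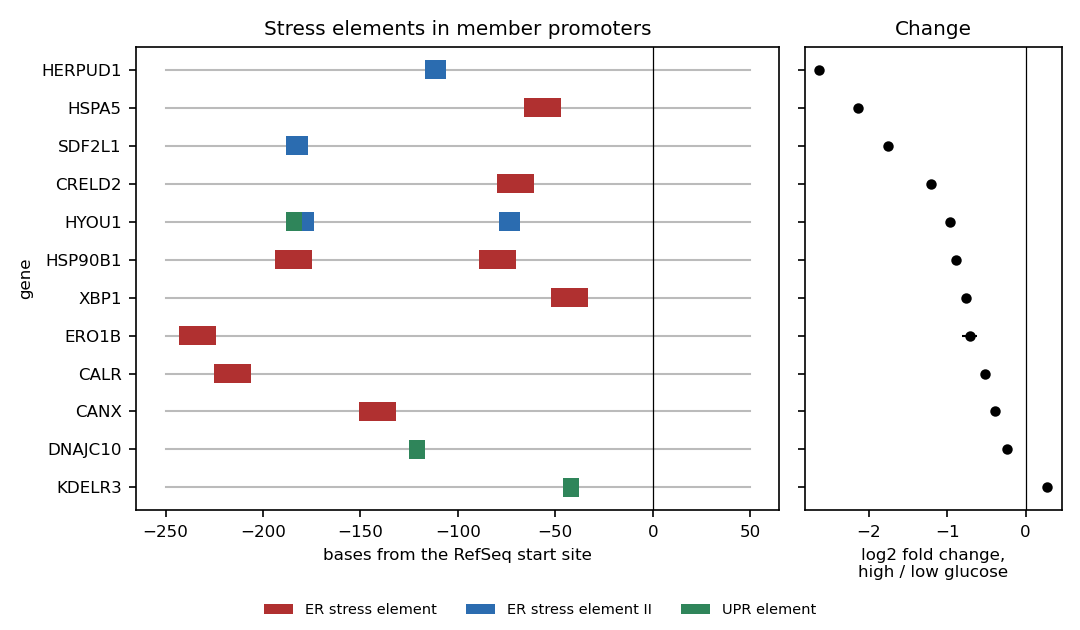
The left panel maps the matches in the 12 RefSeq promoter windows that hold one, in bases from the start site, and the right panel gives each gene's log2 fold change in high over low glucose with its standard error. The 10 genes with an ER stress element of either form lie left of 0, from -2.63 for HERPUD1 to -0.39 for CANX, while KDELR3, which holds only a UPR element, lies at 0.28.

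BiP and its 2 large partners were all lower in high than in low glucose. HSPA5 encodes BiP, the Hsp70 of the ER (chr9:125234853-125241330, minus strand, GENCODE 29 on GRCh38). It stood at 239, 243 and 243 FPKM with chrysin, 276, 277 and 285 FPKM in high glucose and 1186, 1238 and 1282 FPKM in low glucose. The 3 groups did not overlap, and the low glucose libraries were far above the rest: the log2 fold change of high over low glucose was -2.14 ± 0.029 (SE; adjusted p = 8.84e-12), a 4.41-fold fall. By FPKM, HSPA5 ranked between 370 and 395 among all rows in high glucose and between 40 and 47 in low glucose. HSP90B1, the Hsp90 of the ER known as GRP94, had 945, 958 and 967 FPKM with chrysin, 1037, 1053 and 1074 FPKM in high glucose and 1897, 1970.4 and 2009 FPKM in low glucose. HYOU1, an Hsp70 relative that exchanges nucleotide on BiP, had 196, 195 and 194 FPKM with chrysin, 174, 177 and 175 FPKM in high glucose and 337, 339.6 and 354 FPKM in low glucose. Low glucose was highest in both and no group overlapped another; high over low glucose was -0.89 ± 0.026 for HSP90B1, a 1.86-fold fall, and -0.97 ± 0.025 for HYOU1, a 1.96-fold fall. The ratio of HSPA5 to HSP90B1 FPKM was 0.252 ± 0.00125 with chrysin, 0.265 ± 0.00149 in high glucose and 0.631 ± 0.00655 in low glucose (SD, n = 3 each), so these 2 chaperones changed unequally.

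All 6 BiP co-chaperones were lower in high than in low glucose, and their size of change spread widely. DNAJB9 (ERdj4), a J-domain protein that brings BiP to its clients, had 11.3, 13.0 and 12.3 FPKM with chrysin, 13.0, 12.4 and 16.4 FPKM in high glucose and 56.1, 59.3 and 52.8 FPKM in low glucose. SDF2L1, a partner of the J-domain protein ERdj3, had 40.7, 42.2 and 42.2 FPKM with chrysin, 46.1, 41.3 and 43.0 FPKM in high glucose and 147, 152 and 144 FPKM in low glucose. For both genes the chrysin and high glucose libraries overlapped and lay more than 3 times below low glucose, with log2 fold changes of -1.98 ± 0.094 and -1.75 ± 0.042 for high over low glucose. MANF, a secretable ER protein that binds BiP, had 76.6, 76.8 and 78.4 FPKM with chrysin, 82.5, 81.3 and 79.4 FPKM in high glucose and 188, 189 and 194 FPKM in low glucose. The high glucose libraries lay a little above those with chrysin, and both far below low glucose (-1.23 ± 0.028, adjusted p = 8.41e-10). DNAJC3 (p58IPK), a J-domain protein that also inhibits the kinase PERK, had 19.6, 19.8 and 19.9 FPKM with chrysin, 12.7, 13.97 and 14.3 FPKM in high glucose and 28.1, 27.4 and 29.1 FPKM in low glucose. DNAJB11 (ERdj3) had 29.4, 31.5 and 31.6 FPKM with chrysin, 22.8, 21.5 and 22.3 FPKM in high glucose and 40.7, 41.8 and 40.01 FPKM in low glucose. In these 2 genes the order differed: low glucose was highest, chrysin in between and high glucose lowest, with no overlap. Their log2 fold changes for high over low glucose were -1.02 ± 0.051 and -0.87 ± 0.043. DNAJC10 (ERdj5), a J-domain protein that reduces disulfides, changed least, at 34.7 ± 0.635, 37.1 ± 1.201 and 43.8 ± 1.22 FPKM in chrysin, high glucose and low glucose (-0.24 ± 0.039, adjusted p = 0.00146).

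The genes of oxidative folding fell as well, with log2 fold changes from -1.21 to -0.15 for high over low glucose. CRELD2, an ER protein with thioredoxin-like motifs, had 42.8, 40.7 and 44.4 FPKM with chrysin, 45.5, 39.8 and 41.3 FPKM in high glucose and 95.9, 100.1 and 97.5 FPKM in low glucose. PDIA4 (ERp72), a disulfide isomerase, had 192, 198 and 195 FPKM with chrysin, 200.1, 203 and 207 FPKM in high glucose and 391, 413 and 419 FPKM in low glucose. Low glucose stood above both other groups in each gene without overlap, and the log2 fold changes of high over low glucose were -1.21 ± 0.051 and -1.001 ± 0.030. ERO1B, an oxidase that recharges the isomerases, had 4.73, 4.60 and 4.97 FPKM with chrysin, 6.396, 7.57 and 7.23 FPKM in high glucose and 12.3, 10.3 and 13.1 FPKM in low glucose. No groups overlapped, with chrysin lowest and low glucose highest, and high over low glucose was -0.71 ± 0.095 (adjusted p = 0.000436). PDIA6, PDIA3 (ERp57, the isomerase that works with calnexin and calreticulin) and P4HB (protein disulfide isomerase itself) were lower by less. PDIA6 was at 220.1 ± 3.14 FPKM in high and 298 ± 5.15 FPKM in low glucose (-0.44), and PDIA3 at 526 ± 4.66 and 706 ± 5.81 FPKM (-0.42). P4HB, at 926 ± 4.90 FPKM in high and 1024 ± 16.5 FPKM in low glucose, had the smallest fall of the group (-0.15 ± 0.022, adjusted p = 0.00111). A copy of PDIA3, the pseudogene PDIA3P1, is listed at 12.2, 13.9 and 18.0 FPKM in chrysin, high glucose and low glucose, so reads could have been split between them.

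The lectin cycle holds newly made glycoproteins until they fold, with calreticulin (CALR) and calnexin (CANX) as the holders and UGGT1 as the enzyme that sends unfolded ones back. CALR had the highest mean FPKM of the set in every group, at 1923 ± 49.8 FPKM in high glucose and 2759.7 ± 33.6 FPKM in low glucose (-0.52 ± 0.023). CANX averaged 985 ± 35.6 FPKM in high glucose and 1289 ± 20.4 FPKM in low glucose (-0.39 ± 0.027), and UGGT1 averaged 63.8 ± 3.44 and 81.7 ± 2.28 FPKM (-0.36 ± 0.043). All 3 were lower in high glucose, with no overlap between the high and low glucose libraries.

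Of the 5 sensors and regulators 3 were lower in high glucose, 1 was higher and 1 was not called. ERN1, which encodes IRE1, the sensor that splices XBP1 mRNA, had 10.9, 9.79 and 8.97 FPKM with chrysin, 6.62, 8.31 and 9.24 FPKM in high glucose and 11.1, 11.2 and 12.5 FPKM in low glucose. EIF2AK3, which encodes PERK, the kinase that slows translation, had 12.9, 13.2 and 11.5 FPKM with chrysin, 13.2, 14.3 and 13.5 FPKM in high glucose and 17.6, 18.8 and 16.3 FPKM in low glucose. ATF6, the membrane-bound factor released by cleavage in the Golgi, had 23.6, 21.4 and 22.9 FPKM with chrysin, 20.9, 19.8 and 21.6 FPKM in high glucose and 22.2, 22.1 and 23.0 FPKM in low glucose. ERN1 and EIF2AK3 were lower in high than in low glucose (-0.51 ± 0.11, adjusted p = 0.00779, and -0.35 ± 0.070, adjusted p = 0.00502). ATF6 was not called, at -0.11 with a 95% interval of -0.22 to 0.0038 (adjusted p = 0.154), although its 3 high glucose libraries all lay below its 3 low glucose libraries. XBP1, the factor made active by that splicing, had 55.8, 57.6 and 58.7 FPKM with chrysin, 75.2, 75.3 and 72.7 FPKM in high glucose and 124, 127 and 126 FPKM in low glucose. Its groups did not overlap, and it fell by 1.69 times in high relative to low glucose (-0.75 ± 0.031, adjusted p = 1.11e-07). Gene-level FPKM does not separate the spliced from the unspliced form. WFS1, the wolframin of the ER membrane, went the other way, with 31.7, 31.7 and 32.9 FPKM with chrysin, 50.4, 48.9 and 47.1 FPKM in high glucose and 43.6, 42.4 and 40.9 FPKM in low glucose. Its high glucose libraries were the highest of the 9 (0.20 ± 0.040, adjusted p = 0.00404) and its chrysin libraries the lowest.

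**Figure D3:**
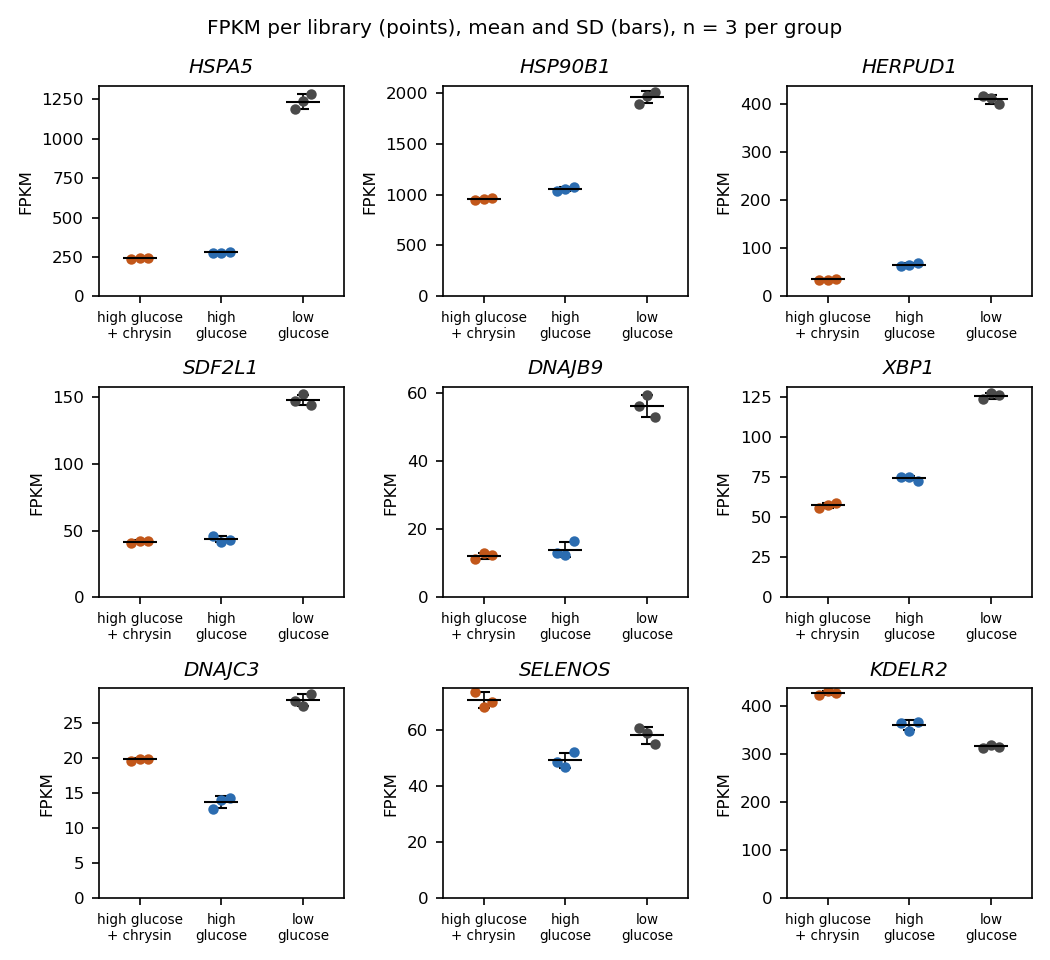
Points are FPKM in each library of 9 of the genes, bars the mean and SD of 3 libraries, with every axis starting at 0. HSPA5, HSP90B1, HERPUD1, SDF2L1, DNAJB9 and XBP1 are low in both high glucose groups; in DNAJC3 the chrysin libraries sit between the others, in SELENOS they are the highest, and KDELR2 is highest with chrysin and lowest in low glucose.

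ERAD held the largest falls of the set and 3 of its 5 genes that were not called; 9 of the 12 ERAD genes were lower in high glucose. HERPUD1, a membrane protein that organises the retrotranslocation complex (chr16:56932048-56944863, plus strand), had 34.7, 34.5 and 36.9 FPKM with chrysin, 63.2, 65.6 and 68.2 FPKM in high glucose and 415, 412 and 399 FPKM in low glucose. DERL3, one of the derlins, membrane proteins of the exit channel (chr22:23834503-23839128, minus strand), had 0.923, 0.982 and 0.955 FPKM with chrysin, 2.01, 1.93 and 1.63 FPKM in high glucose and 11.7, 11.6 and 12.3 FPKM in low glucose. In both genes no groups overlapped, with chrysin lowest and low glucose highest. For high over low glucose HERPUD1 was -2.63 ± 0.038 (adjusted p = 1.09e-11), a 6.19-fold fall, and DERL3 was -2.39 ± 0.097 (adjusted p = 1.03e-07). The DERL3 value is less certain than the others. Its exons share 2923 of 3796 bases with SMARCB1 on the other strand, the strand setting of the counting is not known here, and a library held as few as 24 reads of it. SMARCB1 itself averaged 46.6 ± 1.29, 63.2 ± 1.15 and 66.3 ± 1.42 FPKM in chrysin, high glucose and low glucose, and was not called in high over low glucose (-0.069, adjusted p = 0.172). The next largest share was that of PDIA6, with 1033 of 4101 exonic bases on the other strand from ATP6V1C2, which averaged 1.35 FPKM.

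The core of the HRD1 ligase complex also fell. SYVN1, the ubiquitin ligase HRD1, had 42.3, 41.4 and 44.4 FPKM with chrysin, 35.1, 36.5 and 33.6 FPKM in high glucose and 72.3, 64.9 and 66.5 FPKM in low glucose. SEL1L, its adaptor, had 93.8, 99.8 and 99.7 FPKM with chrysin, 77.0, 88.4 and 86.8 FPKM in high glucose and 149, 147 and 158 FPKM in low glucose. Both were lowest in high glucose and highest in low glucose with chrysin in between and no overlap, at -0.94 ± 0.049 and -0.85 ± 0.052 for high over low glucose. SYVN1 shares 398 exonic bases with FAU on the same strand. SELENOS, a selenoprotein that recruits the p97 ATPase, had 73.8, 68.2 and 70.3 FPKM with chrysin, 48.9, 47.0 and 52.3 FPKM in high glucose and 60.7, 59.2 and 55.0 FPKM in low glucose. Here chrysin was highest and high glucose lowest, and high over low glucose was -0.24 ± 0.051 (adjusted p = 0.00668). SELENOK, another selenoprotein of the complex (-0.55), DERL2 (-0.39), EDEM1, which trims mannose from failed glycoproteins (-0.38), and OS9, the lectin that reads the trimmed sugars (-0.13, adjusted p = 0.0214), were lower too. The call on OS9 was lost under 5 of 18 alternatives, among them those without high glucose replicate 2 or 3 or low glucose replicate 1 or 2 (adjusted p of 0.0578 to 0.0834). DERL1 at -0.0060 (95% interval -0.090 to 0.078), EDEM2 at 0.040 (-0.092 to 0.17) and EDEM3 at 0.12 (-0.071 to 0.31) were not called. Without high glucose replicate 1, EDEM3 was called higher in high than in low glucose, at 0.24 (adjusted p = 0.0113).

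Entry, export and retrieval genes did not move together. SEC23B, a COPII coat subunit, had 71.8, 72.2 and 71.8 FPKM with chrysin, 51.6, 52.0 and 52.9 FPKM in high glucose and 56.9, 59.1 and 55.6 FPKM in low glucose. Its chrysin libraries were the highest and its high glucose libraries the lowest (-0.13 ± 0.032 for high over low glucose, adjusted p = 0.0128). SPCS2, of the signal peptidase (-0.24, adjusted p = 0.0123; its pseudogene SPCS2P4 averaged 9.20 FPKM over the 9 libraries), and SEC61A1, the pore of the translocon (-0.082, adjusted p = 0.0313), were also lower in high glucose. SEC61B, a small translocon subunit (0.14, adjusted p = 0.0315), and the KDEL receptors KDELR2 (0.19) and KDELR3 (0.28), which return ER residents from the Golgi, were higher. KDELR2 averaged 359.7 ± 10.4 FPKM in high glucose and 316 ± 3.33 FPKM in low glucose, and KDELR3 62.9 ± 1.44 and 51.8 ± 2.03 FPKM. KDELR2 shares 376 of 3990 exonic bases on the same strand with DAGLB, which averaged 35.0 FPKM, and the part of shared reads was not tested. SEC24D, the cargo adaptor of the coat, was not called (-0.070, 95% interval -0.17 to 0.031). SEC61A1 lost its call under 6 of 18 alternatives, among them those without chrysin replicate 3, high glucose replicate 3 or low glucose replicate 1 or 2 (adjusted p of 0.0505 to 0.118). SEC61B lost it under 7, among them those without high glucose replicate 1 or 2 or low glucose replicate 2 or 3 (0.0525 to 0.108), and SEC23B without low glucose replicate 2 (0.0535).

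**Figure D4:**
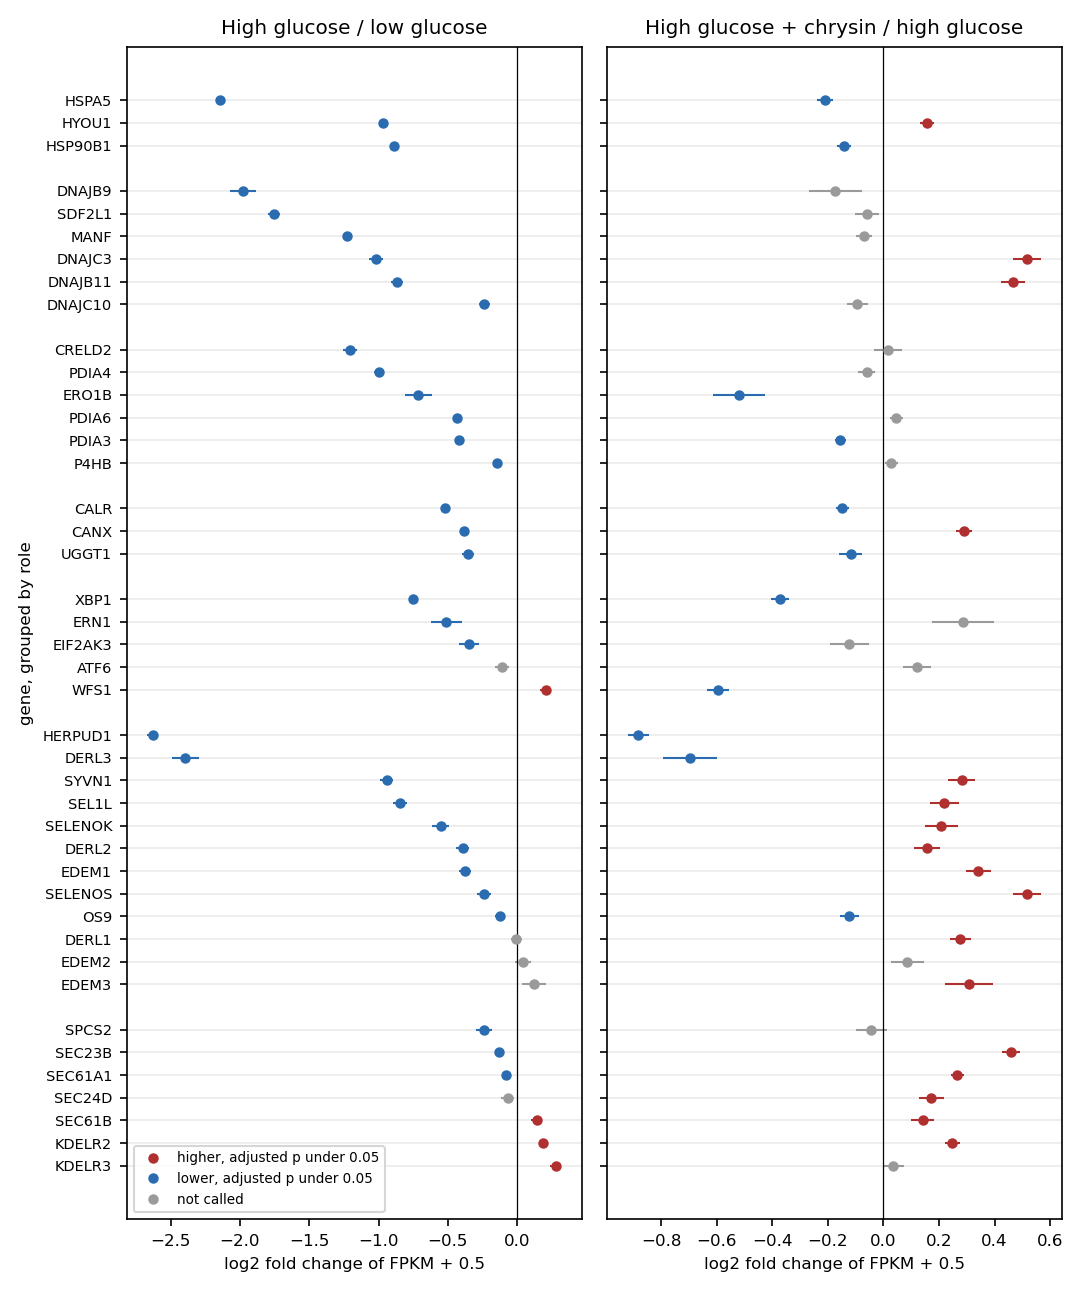
Points are log2 fold changes of FPKM + 0.5 with standard errors for all 42 genes, grouped by role, in high over low glucose on the left and high glucose with chrysin over high glucose on the right; the 2 axes differ in scale. On the left 33 points are called lower and 4 higher, on the right 11 lower and 17 higher.

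With chrysin added to high glucose, genes of the set moved in both directions, as did the genes tested as a whole. Relative to high glucose alone, 17 genes were higher with chrysin, 11 were lower and 14 were not called. Over all genes tested 24.9% were called higher and 20.9% lower. Of the 10414 genes averaging at least 5 FPKM in a group, as all 42 did, 3218 were higher and 3061 lower. With that filter the set gave 18 higher and 11 lower. The median log2 fold change was 0.041 for the set and 0.030 for all genes, and the 42 values ran from -0.88 to 0.52. Between the group means, 24 genes differed by 532 FPKM upward in all and 18 by -484 FPKM. Without high glucose replicate 1 the counts were 17 higher and 12 lower. Both comparisons use the same high glucose libraries, so a high or low value there moves a gene in opposite directions in the 2 comparisons.

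HERPUD1 and DERL3 led the genes that were lower with chrysin. HERPUD1 averaged 35.4 ± 1.36 FPKM with chrysin and 65.6 ± 2.52 FPKM in high glucose (SD, n = 3 each), a log2 fold change of -0.88 ± 0.038 (adjusted p = 6.37e-08), and DERL3 0.953 ± 0.0294 and 1.86 ± 0.2004 FPKM (-0.69 ± 0.097, adjusted p = 0.000182). The added 0.5 FPKM is large beside the level of DERL3 and understates its change. SMARCB1, which overlaps DERL3, was lower with chrysin too, at -0.43 (adjusted p = 2.95e-06), and its part in the DERL3 value was not tested. WFS1 came next at -0.60 ± 0.040 (adjusted p = 1.04e-06), then ERO1B at -0.52 ± 0.095 (adjusted p = 0.00108) and XBP1 at -0.37 ± 0.031 (adjusted p = 4.81e-06). HSPA5 was 1.16 times lower with chrysin (-0.21 ± 0.029, adjusted p = 0.00017). PDIA3, CALR, HSP90B1, OS9 and UGGT1 fell by small amounts, between -0.16 for PDIA3 and -0.12 for UGGT1; the call on UGGT1 was lost under 8 of 18 alternatives, among them those without chrysin replicate 2 or 3, high glucose replicate 2 or 3 or low glucose replicate 1 (adjusted p of 0.0576 to 0.141), and that on OS9 without chrysin replicate 2 (0.0532).

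ERAD and transport genes made up most of those higher with chrysin. Of the 12 ERAD genes 8 were higher, and of the 7 entry, export and retrieval genes 5 were higher and 0 lower; at an unadjusted p under 0.05 none of those 7 was lower either, and limma voom also called none lower. The largest rises were those of DNAJC3 (0.52 ± 0.051, adjusted p = 1.51e-05), SELENOS (0.52 ± 0.051, adjusted p = 1.5e-05), DNAJB11 (0.46 ± 0.043, adjusted p = 9.91e-06) and SEC23B (0.46 ± 0.032, adjusted p = 1.37e-06). The per-library values given above do not overlap between chrysin and high glucose in these 4 genes. EDEM1, EDEM3, SYVN1, DERL1, SEL1L, SELENOK and DERL2 rose by 0.16 to 0.34 on the log2 scale. Among these, DERL2 lost its call without chrysin replicate 3 or high glucose replicate 2 (adjusted p of 0.0768 and 0.0734), and SELENOK without chrysin replicate 1 or high glucose replicate 2 (0.0518 and 0.0503). SEC61A1 (0.27), KDELR2 (0.25), SEC24D (0.17) and SEC61B (0.14) rose among the transport genes, SEC61B without a call once chrysin replicate 3 or high glucose replicate 3 was left out (adjusted p of 0.0635 and 0.0594). CANX (0.29) and HYOU1 (0.16) were higher among the chaperones. CANX averaged 1204 ± 7.45 FPKM with chrysin and 985 ± 35.6 FPKM in high glucose, the opposite of its partner CALR at 1736 ± 18.5 and 1923 ± 49.8 FPKM.

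The 14 genes not called with chrysin came from 5 of the 7 roles. SDF2L1 was at -0.059 (95% interval -0.15 to 0.034), DNAJB9 at -0.17 (-0.38 to 0.036), CRELD2 at 0.016 (-0.097 to 0.13), MANF at -0.069 (-0.13 to -0.0074) and PDIA4 at -0.061 (-0.13 to 0.0048). Of the sensors, ERN1 was at 0.29 (0.039 to 0.53, adjusted p = 0.0574), EIF2AK3 at -0.12 (-0.28 to 0.033) and ATF6 at 0.12 (0.0078 to 0.23). ERN1 passed the threshold as higher under 5 of 18 alternatives, among them limma voom and those without chrysin replicate 3 or high glucose replicate 3 (adjusted p of 0.0476 and 0.0179). Leaving out 1 library also gave a call to ATF6 (without chrysin replicate 2, 0.0376), DNAJC10 (without high glucose replicate 1, 0.0258) and MANF (without high glucose replicate 3, 0.0476). The rest were DNAJC10, PDIA6, P4HB, EDEM2, SPCS2 and KDELR3, between -0.094 and 0.086.

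The genes with an ER stress element in the promoter window and those without are given apart for chrysin over high glucose. Of the 10 with an element 6 were lower and 2 higher, with a median log2 fold change of -0.14, and of the 27 without 3 were lower and 12 higher, with a median of 0.12. This difference between the 2 lists was not tested. The 2 higher genes with an element were CANX and HYOU1, and CRELD2 and SDF2L1 were not called.

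Set against low glucose, the cells given high glucose with chrysin had 29 of the 42 genes lower, 8 higher and 5 not called. Among all genes 21.3% were called lower and 29.7% higher, and the median log2 fold change was -0.39 for the set and 0.051 for all genes. Among the 10414 genes averaging at least 5 FPKM in a group, 3093 were lower and 3830 higher. With that filter the set again gave 29 lower and 8 higher. HERPUD1 was 11.4 times lower (-3.51 ± 0.038, adjusted p = 1.52e-12), DERL3 8.51 times (-3.09 ± 0.097) and HSPA5 5.11 times (-2.35 ± 0.029, adjusted p = 3.28e-12). DERL3 averaged only 0.953 FPKM with chrysin and 11.9 FPKM in low glucose. The added 0.5 FPKM therefore understates its change, and the order of HERPUD1 and DERL3 may depend on it. HSPA5 took 2.85% of the set's summed FPKM with chrysin, 3.31% in high glucose and 9.44% in low glucose, and it ranked between 443 and 454 among all rows with chrysin. The 8 higher genes were KDELR2 (0.43), EDEM3 (0.43), SEC23B (0.33), KDELR3 (0.31), SEC61B (0.28), SELENOS (0.28), DERL1 (0.27) and SEC61A1 (0.18). Those not called were ATF6, EDEM1, EDEM2, ERN1 and SEC24D.

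EDEM1 averaged 51.7 ± 0.961 FPKM with chrysin and 53.0 ± 2.02 FPKM in low glucose (-0.035, 95% interval -0.13 to 0.063), and ATF6 22.6 ± 1.12 and 22.4 ± 0.521 FPKM (0.012, -0.10 to 0.12). EDEM2 was at 0.13 (-0.0056 to 0.26), ERN1 at -0.22 (-0.47 to 0.023) and SEC24D at 0.10 (0.0011 to 0.20). Without high glucose replicate 1, which enters only the estimate of spread here, ERN1 was called lower (adjusted p = 0.0439) and SEC24D higher (0.0169). Over the 3 comparisons, 109 of 126 pairs of a gene and a comparison kept their side of the threshold under every one of the 18 alternatives, and 0 reversed.

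Other genes of the same pathways were read from 7 lists in the same fit, first in high over low glucose, where 8.91% of all genes were lower and 14.6% higher; the genes named are those with the smallest p in each direction. Among 23 other ERAD genes 3 were lower and 4 higher in high glucose, with a median of -0.033. MAN1B1, a mannosidase (-0.27), UBE2J1, a ubiquitin-conjugating enzyme of the ER membrane (-0.30), and MARCHF6, a ligase (-0.15), were lower, and VCP, the p97 ATPase (0.10), UFD1, its cofactor (0.13), and FAM8A1 (0.23) were higher. Of 31 other ER folding genes 30 were tested, 9 of them lower and 3 higher, with a median of -0.023; FICD, which modifies BiP with AMP (-1.21), SIL1, a nucleotide exchanger of BiP (-0.34), and QSOX1, a disulfide oxidase (-0.16), fell, while SDF2 (0.35), TOR1A (0.16) and GPX8 (0.14) rose. Among 33 genes of translocation and N-glycosylation 11 were lower and 6 higher, with a median of -0.021; TRAM1 (-0.18), SEC11C of the signal peptidase (-0.42) and TRAM2 (-0.20) fell and SRP9 (0.16), SRP54 (0.18) and SEC61G (0.17) rose. Of 27 vesicle coat and cargo receptor genes 5 were lower (TMED2 at -0.14, TMED10 at -0.14 and LMAN1 at -0.15 among them) and 8 higher (SAR1A at 0.25, SEC24A at 0.27 and SAR1B at 0.27 among them). The set's median of -0.41 stood beside list medians between -0.11 and 0.15, without a test of that difference.

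Among other regulators of the response more genes were lower than higher. Of 16 such genes 8 were lower and 2 higher in high glucose, with a median of -0.11. DDIT3, which encodes CHOP, was at 4.82 FPKM with chrysin, 9.67 FPKM in high glucose and 103 FPKM in low glucose (-3.35 for high over low glucose, adjusted p = 2.45e-10). TRIB3 (-1.81) and PPP1R15A, which encodes GADD34 (-1.01), both in the CHOP and ATF4 branch, fell as well, while TMBIM6 (0.15) and RTCB, the ligase that joins XBP1 (0.14), rose. Of 6 transcripts known to be cut by IRE1 none was called in high over low glucose; at an unadjusted p under 0.05 there was 1 higher and none lower, and limma voom called 1 higher. The 20 chaperones of the cytosol and mitochondria included 12 higher and 3 lower, with a median of 0.15: DNAJA1 (0.53), HSPA8 (0.22) and DNAJB1 (0.38) rose, and HSPA9 (-0.22), LONP1 (-0.27) and TRAP1 (-0.12) fell.

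With chrysin over high glucose the lists stood beside 24.9% of all genes higher and 20.9% lower. In it 12 of the 23 other ERAD genes were higher and 7 lower, with UBE2G2 (0.50) and NPLOC4 (0.23) up and RNF5 (-0.41) and VCP (-0.19) down. Among the 27 vesicle coat and cargo receptor genes 15 were higher and 2 lower, with a median of 0.16; MCFD2, a cargo receptor subunit (0.47), and COPG1, a COPI coat subunit (0.33), rose, and KDELR1 (-0.13) and COPA (-0.10) fell. The 30 other folding genes gave 5 higher and 6 lower (TMX2 at 0.40 and SDF2 at 0.34, ERO1A at -0.44 and GPX8 at -0.28), and the 33 of translocation and N-glycosylation 7 higher and 5 lower (SRP68 at 0.21 and SRPRB at 0.37, STT3B at -0.33 and SEC62 at -0.31). Of the 16 other regulators 10 were lower and 5 higher, among them DDIT3 (-0.94), MBTPS1, the protease that first cuts ATF6 (-0.39), MBTPS2, the protease of the next cut (0.29), and CREB3 (0.24). Of the IRE1 targets SCARA3 rose (0.26) and PDGFRB fell (-0.53). The 20 chaperones outside the ER gave 12 higher and 0 lower, with the smallest p in STIP1 (0.31) and HSPD1 (0.27); at an unadjusted p under 0.05 13 were higher and 0 lower, and limma voom called none lower.

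**Figure D5:**
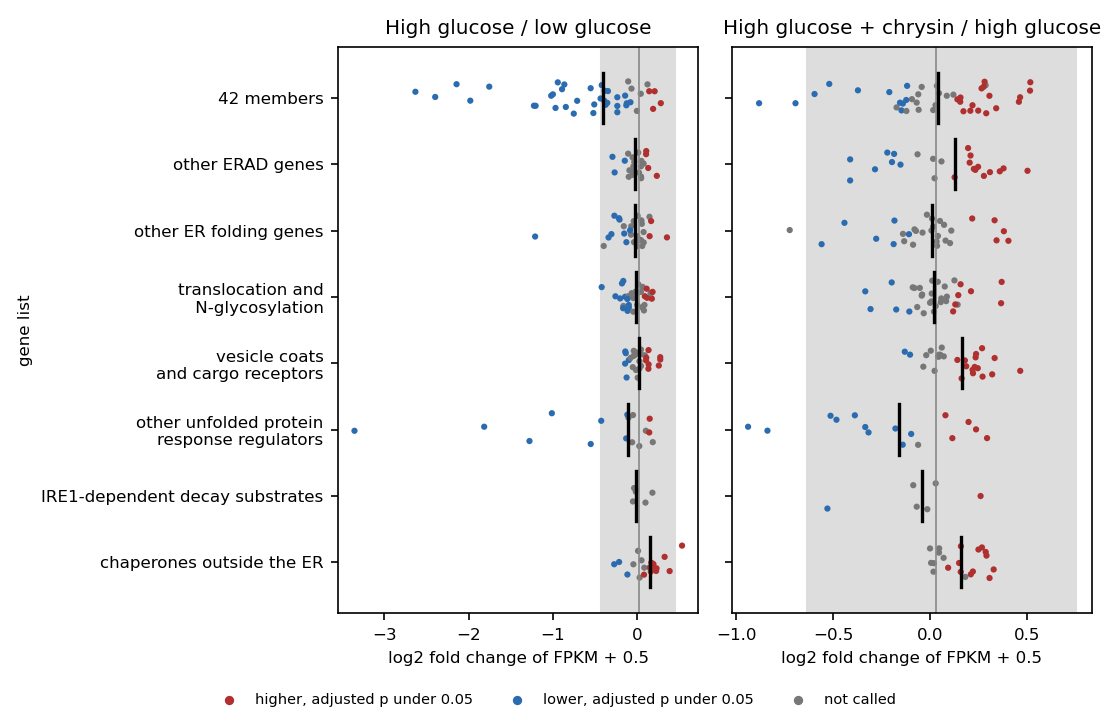
Each point is 1 gene's log2 fold change, rows are the 42 genes and the 7 other lists, black bars are list medians, and the grey band spans the 5th to 95th percentile of all 16996 genes with their median as a line. In high over low glucose the 42 genes run from -2.63 to 0.28 with a median of -0.41 left of the other lists, and in chrysin over high glucose all but the HERPUD1 (-0.88) and DERL3 (-0.69) points of the 42 lie within the band, from -0.60 to 0.52.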

How the data were processed

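PolyA RNA of 9 AC16 libraries was measured, 3 in each of 3 groups assigned from the labels. The authors deposited 1 table of FPKM per gene, and the unit was read from the column values and steps. Named in the submitters' processing notes, without roles, are StringTie 2.2.1, fastp 0.23.4, HTSeq 0.13.5, HISAT2 2.2.1 and hg38. Which annotation and strand setting served is not stated there. All columns of the table were used.

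From the deposited FPKM, log2(FPKM + 0.5) was fitted by limma 3.58.1 (R 4.3.3) over all 9 libraries, with 1 coefficient a group and a variance trend. The 16996 genes tested averaged 0.5 FPKM or more in 1 group or more. P-values are two-sided and Benjamini-Hochberg adjusted over those genes, and calls are at an adjusted p under 0.05. For a single gene an exact permutation test of 3 against 3 libraries cannot go below 0.1. Errors are SDs over libraries for FPKM and standard errors from limma for log2 fold changes.

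Whole reads were recovered from the steps of the FPKM values: all 28230 genes above 0 in 2 or more libraries came out whole within 0.02 reads, which gave the depth of each library and served limma voom as an alternative. The genes described held between 24 reads (DERL3) and 97129 reads (HSPA5) in a library, and at least 194 in genes other than DERL3. Alternatives were other pseudocounts (0.1 and 1), no filter or at least 5 FPKM, median-of-ratios scaling, the replicate number as a block, only the groups compared, and leaving out each library; a GC and length correction was chosen after seeing the data. The fit was first run on simulated libraries in which far fewer genes differed than were called here. That run does not measure the error of the calls in these data. Gene positions are from GENCODE 29, and promoters from RefSeq.

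The 42 genes and all lists were chosen with earlier results of these data known. Named were all 42 genes, with per-library values for the 14 with the largest change in high over low glucose, the 8 with the largest with chrysin, and ERN1, EIF2AK3, ATF6 and XBP1; of each other list, up to 3 genes with the smallest p in each direction in high over low glucose and up to 2 with chrysin. Protein sequences were not used here.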

Additional observations from a re-analysis of the deposited data

How the results depend on the processing

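Under the 18 alternatives the set's counts of calls kept within 1.5 times the values given. In high over low glucose they ran from 3 to 4 higher and 30 to 33 lower, in chrysin over high glucose from 15 to 19 higher and 9 to 14 lower, and in chrysin over low glucose from 8 to 9 higher and 29 to 30 lower. Of 2268 single values, 2213 kept their side of the threshold, 35 lost a call, 20 gained one and 0 reversed. The replicate numbers did not pair the libraries: same-numbered libraries had correlations of -0.095 to 0.058 in their deviations from the group means. With the replicate number as a block the set gave 4 higher and 33 lower in high over low glucose, 17 and 10 with chrysin over high glucose (UGGT1 lost its call, adjusted p = 0.0654), and 8 and 29 with chrysin over low glucose. After median-of-ratios scaling 14 genes were lower with chrysin over high glucose, DNAJC10, MANF and PDIA4 among them.

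Counts in the other lists moved more. In high over low glucose the higher calls were 1 of other ERAD genes after median-of-ratios scaling and 2 with the block or with only the groups compared, 3 of translocation genes under median-of-ratios scaling or only the groups compared, and 1 of other regulators under median-of-ratios scaling or no filter; the lower calls were 3 of vesicle genes with no filter and 1 of IRE1 targets after the GC and length correction, while limma voom gave 1 higher IRE1 target. In chrysin over high glucose median-of-ratios scaling gave 10 lower folding genes, it or no filter 3 higher regulators, and it or limma voom 2 lower IRE1 targets. In chrysin over low glucose 5 vesicle genes were lower after median-of-ratios scaling and 4 after the GC and length correction, beside 2. Leaving out 1 library left 2 higher ERAD genes, 3 higher translocation genes, 3 lower vesicle genes, 1 higher regulator or 1 higher IRE1 target in high over low glucose, and 3 lower translocation genes, 1 lower vesicle gene, 3 higher regulators or 2 lower IRE1 targets with chrysin. The cause was not tested. With 3 libraries a group and as few as 24 reads in a library, DERL3 had the fewest reads of the set.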

Other observations

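An ER stress element of either form also lay in the promoter windows of 15 tested genes outside the set. In high over low glucose 7 of these were lower and 3 higher, beside 10.1% lower and 17.9% higher of the 10750 genes outside the set whose window held none. FICD, which modifies BiP with AMP, had the largest fall at -1.21 (adjusted p = 2.38e-07). RAD9A, of the DNA damage checkpoint, was at -0.56, ALG12, an ER mannosyltransferase of N-glycan assembly, at -0.46, and EIF2A at -0.22. SHCBP1 (-0.10), NUCB1 (-0.12) and SERP1 (-0.13) were lower by less. GYS1, the muscle glycogen synthase (0.34), ZNF143 (0.34) and CNKSR1 (0.71, adjusted p = 0.0313) were higher. ALG12 shares 168 exonic bases with CRELD2 on the other strand, and the part of shared reads in its value was not tested. Whether windows of neighbouring genes, such as ALG12 and CRELD2, hold the same element was not checked, so the 15 genes may not all be separate cases.

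With chrysin over high glucose 3 of the 15 genes were lower and 6 higher. Of the genes outside the set without an element, 25.2% were lower and 26.6% higher. SETD3 (0.49), ZNF17 (0.46), FICD (0.38), RAD9A (0.32), SHCBP1 (0.29) and EIF2A (0.27) were higher, and ZNF143 (-0.42), TMEM120A (-0.23) and NUCB1 (-0.17) lower. PLS3, TRIM5, SETD3, TMEM120A and ZNF17 were not called in high over low glucose.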
